A study of Drosophila melanogaster with 2 samples.

Results

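Promoter peaks of a single gene are the sites of tagged Broad binding that can be given to 1 protein-coding gene by position alone. A peak was counted here when its summit, the position of highest signal, fell no more than 500 bp from transcription starts of exactly 1 protein-coding gene in the Ensembl annotation. Of the 6635 peaks that the authors kept for dm6, 1937 (29.2%) met this rule, 765 lay within 500 bp of starts of 2 or more genes and 3933 had no protein-coding start that close. ChIP-seq was done on wandering larvae of the third instar of Drosophila melanogaster, taken whole and with both sexes pooled. The larvae came from the transgenic strain br-rj-GFP, which stably expresses br-RJ fused to GFP at its C-terminal end, and tagged chromatin was pulled down by anti-GFP antibody. All samples form 1 group, of 2 biological replicates from different biosamples per the labels, and no untagged or other control sample was analysed, so no condition could be compared with another. The labels give the age as unknown and name neither the promoter of the transgene nor the tissues that express it, and a peak of a whole animal cannot be given to a tissue. The authors' lists hold 1 signal value per peak on a scale that the sources used here do not state, and no read counts, so the depth of the libraries is unknown.

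Broad, the product of br, is a family of BTB zinc finger transcription factors induced early by the steroid hormone ecdysone, and it is known for its role at the passage from larva to pupa. Its isoforms share the BTB domain, which joins proteins to one another, and differ in the zinc fingers that contact DNA. A promoter in flies is a short region around the start of transcription, and many fly genes have several start sites that are used in different tissues or stages. General core promoter sequences lie close to the start, while binding sites of regulatory factors can lie upstream of it or further away.

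The sequences under the strongest peaks are shown first, because position and base composition of these summits are described afterwards. They are the 8 highest-signal peaks of those whose sequence could be shown, which leaves out a summit in an untranslated region and 2 genes on a chromosome arm not shown. Each is read from the RefSeq copy of the Release 6 genome (dm6) on the strand of its gene, 5′ to 3′, in a window of 50 bases to either side of the summit, which for Ugalt is cut short at 78 bases where its untranslated region begins. Capitals mark matches, on either strand, to 10 words chosen for known promoter elements or to the 6 words of 6 bases described with the base composition.
Ugalt, chrX:2703853-2703930: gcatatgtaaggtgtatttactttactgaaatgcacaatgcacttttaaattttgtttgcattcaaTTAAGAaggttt
CG14100, chr3L:19590563-19590663: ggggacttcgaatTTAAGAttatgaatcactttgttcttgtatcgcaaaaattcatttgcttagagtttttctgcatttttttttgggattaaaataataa
CG18549, chr3R:12449125-12449225: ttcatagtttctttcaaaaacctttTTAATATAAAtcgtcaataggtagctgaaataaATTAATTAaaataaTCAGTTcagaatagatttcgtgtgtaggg
ph-p, chrX:2137263-2137363: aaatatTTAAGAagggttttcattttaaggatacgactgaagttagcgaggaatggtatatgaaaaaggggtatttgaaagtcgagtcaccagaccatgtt
larp, chr3R:28326542-28326642: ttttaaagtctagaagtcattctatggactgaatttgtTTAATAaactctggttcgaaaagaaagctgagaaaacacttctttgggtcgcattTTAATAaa
Hsp27, chr3L:9383871-9383971: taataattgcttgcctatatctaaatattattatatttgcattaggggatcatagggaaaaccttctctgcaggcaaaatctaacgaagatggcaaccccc
gish, chr3R:16280679-16280779: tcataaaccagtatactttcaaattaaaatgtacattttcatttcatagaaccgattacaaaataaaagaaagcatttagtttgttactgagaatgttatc
Trp1, chr2L:10010173-10010273: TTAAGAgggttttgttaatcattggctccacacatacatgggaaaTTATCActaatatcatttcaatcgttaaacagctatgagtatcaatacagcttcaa

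Ugalt, CG14100, CG18549 and Hsp27 have their summits between protein-coding genes, and ph-p, larp, gish and Trp1 have theirs in an intron of the gene itself, upstream of one of its later starts. The word TTAAGA stood in 4 of the 8 windows, and 2 of the 8 (Hsp27 and gish) held none of the marked words. TTAAGA was picked for its frequency at the members, which include these 8, so the count is no separate observation. It stood in 7.43% of all member windows, 11.98% of those of the 484 strongest members and 8.88% at the other peaks. Genes on the minus strand are Ugalt, CG14100, ph-p and larp.

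Summits lay mostly upstream of the start. Of the 1937 peaks, 1394 (72.0%) had the summit upstream of the nearest start in the direction of transcription, 540 (27.9%) downstream and 3 at the start itself. The median summit was 89 bp upstream, at −89 bp, and the middle of the distribution ran from −216 to 12 bp (25th to 75th percentile). A share of 40.8% (790 peaks) lay within 100 bp of the start on either side, and 53.2% lay in the 250 bp upstream. Counts were highest in the bin from −50 to 0 bp (248 peaks) and from −100 to −50 bp (226 peaks), and 116 peaks lay between 50 and 100 bp downstream. Beyond 100 bp downstream there were 227 peaks (11.7%). The 765 promoter peaks of 2 or more genes had a median of −66 bp from the nearest start, with 79.0% upstream and 63.8% within 100 bp. These differences between the peak classes were not tested.

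**Figure D1:**
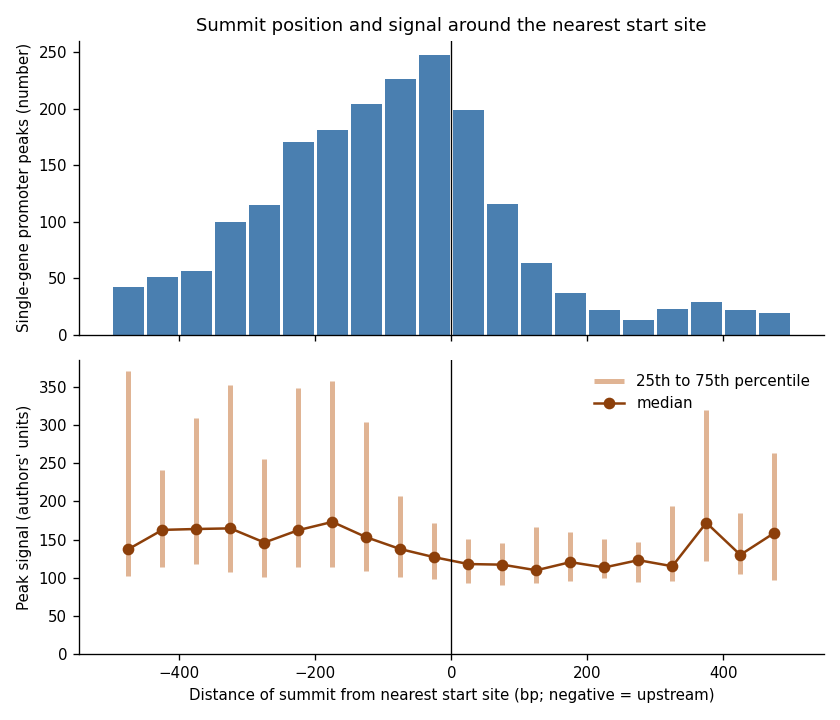
Number of single-gene promoter peaks (top) and their signal (bottom, authors' units; points are medians, bars the 25th to 75th percentile) in bins of 50 bp by distance of the summit from the nearest start, negative upstream. Counts are highest just upstream of the start, at 248 in the bin from −50 to 0 bp. The 75th percentile of the signal is higher further upstream, at 357 from −200 to −150 bp against 172 from −50 to 0 bp.

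Strong peaks lay further upstream than weak ones. The peaks were ranked by signal and divided into 4 bins of nearly equal size. The 484 peaks of the highest bin (225 to 2881) had their median summit at −161.5 bp with 84.1% upstream and 24.0% within 100 bp of the start. The 485 peaks of the lowest bin (80.0 to 102) had it at −43 bp, with 61.9% upstream and 48.7% within 100 bp. Between these, the second-lowest and the third bin had medians of −58.5 and −88.5 bp, so the order ran the same way through all 4. Among the 100 strongest peaks, 92% were upstream and the median was −193 bp.

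Seen from the position, the median signal was 162 for the 556 summits over 100 and up to 250 bp upstream and 155 for the 364 summits over 250 and up to 500 bp upstream. It was 131 for the 474 summits from 100 bp upstream up to the start, and 118 for the 316 from the start to 100 bp downstream. A signal of 500 or more was reached by 78 of those 556 peaks over 100 and up to 250 bp upstream (14.03%), and by 1.90% of those from the start to 100 bp downstream (6 peaks). Both replicates gave this order in their own lists. In replicate 1 the medians were 86.1 for the summits over 100 and up to 250 bp upstream and 65.7 for those from the start to 100 bp downstream, and in replicate 2 they were 82.9 and 54.0. Genes with 1 annotated start position, where the nearest start is not a choice, also had a median of 173 over 100 and up to 250 bp upstream (190 peaks) and of 125 within 100 bp of the start (311 peaks). Peaks over 250 and up to 500 bp downstream (106 peaks) had a median of 147. The ratio of the median within 100 bp to the median at 250 to 500 bp on either side was 0.819. No test was made across peaks, which are not replicates.

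Base composition moved with signal and position. Windows of 50 bases to either side of the summit had a GC content of 35.7% ± 9.57 in the highest bin by signal and 44.0% ± 9.88 in the lowest (SD over 484 and 485 peaks). Windows of the same width 250 bp further from the start had 40.9% and 40.7% in these bins. Over 100 and up to 250 bp upstream alone, GC content was 33.0% in the highest bin (203 peaks) and 41.6% in the lowest (103 peaks), so the bins also differed at a like distance from the start. Within 100 bp of the start the values were 42.2% (116 peaks) and 46.8% (236 peaks). Over all members it was 41.05%, against 36.4% around the other 4698 summits of the set and 43.7% around the 18945 start groups of protein-coding genes, where starts within 100 bp of the next were merged into 1 group. The part of this gradient in the word counts that follow was not tested.

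Words of known promoter elements fell into sets that differed in where they were more frequent. TATCGATA, the DNA replication-related element of housekeeping promoters, stood in 2.37% of the member windows (46 of 1937), against 0.671% of windows 250 bp further from the start, 0.873% of the windows of the other peaks and 4.49% of the windows around all start groups. GGTCACAC, the beginning of the core promoter sequence called motif 1, stood in 1.29% of the member windows (25 windows), against 0.258%, 0.660% and 4.60% in the same order. TCAGTT, an initiator sequence, stood in 8.31%, against 5.27%, 6.90% and 15.5%, and CAGCTG, an E-box, in 6.92%, against 3.61%, 4.11% and 8.82%. These 4 words were thus more frequent at member summits than beside them or at the other peaks, and less frequent than at starts. Member windows are centred on summits and the start windows on starts, so the positions within the promoter differ.

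GAGAG, the GAGA element, stood in 16.9% of member windows, against 17.7% beside them, 11.5% at the other peaks and 12.7% at starts. The GATA element TGATAA stood in 9.09%, against 8.78%, 10.5% and 5.93%. Both were more frequent than at starts, with a share beside the summit close to that at it. TATAAA, the TATA box, stood in 14.04%, against 14.3%, 17.8% and 15.4%. The rarer words were CACGTG, the E-box of Myc and Max, with 0.981% against 1.14%, 0.766% and 1.80%, CAGGTA, a Zelda element, with 2.12% against 2.74%, 1.62% and 2.01%, and TGACTCA, an AP-1 element, with 1.14% against 0.826%, 0.894% and 0.771%. None of these differences was tested. GAGAG overlaps with itself in repeats, and every word was searched on both strands.

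Among all 2080 words of 6 bases, with each counted together with its reverse complement, 588 stood in at least 5% of the member windows. The 6 with the highest ratio of the share at member summits to the share at all start groups were AGAGAG (8.72% against 4.30%), TAATTA (5.94% against 2.95%), TCTTAA (7.43% against 3.83%), GAGAGA (7.90% against 4.09%), TATTAA (12.1% against 6.31%) and ATTAAT (6.45% against 3.42%). AGAGAG and GAGAGA overlap with each other and with GAGAG, and they were less common in the highest bin by signal (6.40% and 5.17%) than in the lowest (10.1% and 10.3%). The AT-rich words ran the other way. TCTTAA, which reads TTAAGA on the other strand, stood in 11.98% of the highest and 5.57% of the lowest bin, and TATTAA in 18.8% and 9.69%. Over all members TCTTAA stood in 7.43% of the windows at the summit, against 6.45% of those 250 bp away and 8.88% at the other peaks. For TATTAA the shares were 12.1%, 13.5% and 15.8% in the same order. TAATTA stood in 5.94% of member windows against 7.81% at the other peaks, and ATTAAT in 6.45% against 8.11%. The AT-rich words of the 6 were thus all more frequent at the other peaks than at members. AGAGAG stood in 4.58% and GAGAGA in 4.32% of windows at the other peaks, less often than at members. In windows 250 bp away AGAGAG stood in 8.67% and GAGAGA in 7.49%, close to their shares at the summit. TAATTA stood in 7.43% and ATTAAT in 5.99% of windows 250 bp away, against 5.94% and 6.45% at the summit. These are counts of letters and not binding sites.

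Summits matched in both replicates lay close together, within the limit that the matching sets. Of the 1937 peaks, 1791 (92.5%) had a summit within 100 bp in both replicates' own lists of 30000 peaks each, 76 in replicate 1 alone, 67 in replicate 2 alone and 3 in neither. The summits of the replicates lay a median of 21 bp apart, and 71 bp at the 90th percentile. In replicate 1, 72.5% of these 1791 summits were upstream of the start, and in replicate 2 it was 72.6%, with medians of −84 and −89 bp. The summit was on the same side of the start in both replicates for 1658 peaks (92.6%), and 124 of the 133 others had their summit within 50 bp of the start. Signals in the replicates' lists had a Spearman correlation of 0.770 and, on the log2 scale, a Pearson r of 0.858 across the 1791 peaks. The log2 ratio of replicate 1 to replicate 2 had an SD of 0.54, with 93.4% of the ratios inside 2-fold. The peak set was built from both replicates, so these matches arise in part by construction. Matches were sought only within 100 bp of the pooled summit, which also limits how far apart the replicates' summits can lie. Peaks without a match within 100 bp in both lists were weaker (146 peaks, median signal 108) than those matched in both (median 141), though they reached 568. Such a peak need not be absent from a list, since 98.3% of the 1937 were matched in both within 200 bp.

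**Figure D2:**
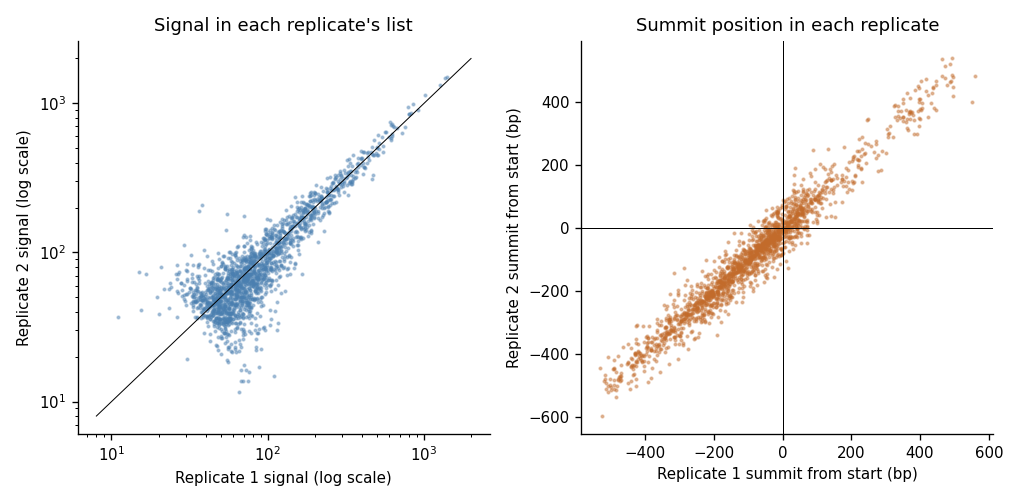
Signal (left, log axes) and summit distance from the start in bp (right) of the single-gene promoter peaks in the list of replicate 1 (x axis) and of replicate 2 (y axis), 1 point per peak for the 1791 matched in both. Strong peaks lie close to the diagonal and weak ones scatter more. Positions follow the diagonal, in part because matches were sought only within 100 bp of the pooled summit, with 92.6% on the same side of the start.

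The strongest single-gene promoter peak was at Ugalt, which encodes a UDP-galactose transporter. Its signal was 2881 in the pooled list, and 1412 and 1513 in the lists of replicates 1 and 2, with the summit 28 bp upstream of the start. The start of the next protein-coding gene lay 691 bp from this summit, which keeps the peak within the rule. CG14100 followed with 2833 (1371 and 1470.4 in replicates 1 and 2) at −89 bp, and CG1888 with 2563 (1264 and 1328) at −224 bp. PNPase, which encodes polynucleotide phosphorylase, an enzyme that degrades RNA, had 2137 (1014 and 1138), with the summit 71 bp downstream in its 5′ untranslated region and another gene's start 576 bp from it. CG18549 had 1811 (916 and 907) at −121 bp. All of these values are on the scale of their own list.

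Next came ph-p, a Polycomb group gene, with 1788 (853 and 997) at −458 bp. At larp, which encodes an RNA-binding protein related to La, the signal was 1721 (795 and 944) at −328 bp. Hsp27, a small heat shock gene, had 1688 (829.6 and 856) at −142 bp. For gish, a gene of a casein kinase I, it was 1650 (806 and 843) at −160 bp. These 4 genes differ in function and in promoter layout, and all had the summit over 100 bp upstream. Sox14, a transcription factor gene of the SOX family, had 1624 (797 and 843) at −269 bp. Trp1 had 1452 (755 and 699) at −131 bp, and Gapdh2, which encodes a glycolytic enzyme, 1355 (675 and 681) at −169 bp.

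The list of 25 genes went on with mRpL41 (1350, at −128 bp), a mitochondrial ribosomal protein gene, Hpf1 (1347, −99 bp), a factor of histone ADP-ribosylation, Fkbp14 (1340, −125 bp), a prolyl isomerase gene, and eIF6 (1334, just over 100 bp upstream), a factor of the large ribosomal subunit. CG1607, CG13921, Ptpmeg2, a tyrosine phosphatase gene, GstE13, a glutathione S-transferase gene, Reg-5, CG43389, MFS10, REPTOR, a transcription factor gene downstream of TOR, and Tina-1 closed it with signals from 1327 at CG1607 to 1157 at Tina-1. Of these 25 genes, 23 had the summit upstream of the start, and PNPase and GstE13 (82 bp downstream) were the exceptions. A distance of 75 to 350 bp upstream held 21 of them. The share of all 1937 peaks in that same range was not counted. Over 100 and up to 250 bp upstream, which is a part of it, lay 28.7% of all 1937. Their 25th percentile was at −216 bp and their median at −89 bp, both inside the range.

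**Figure D3:**
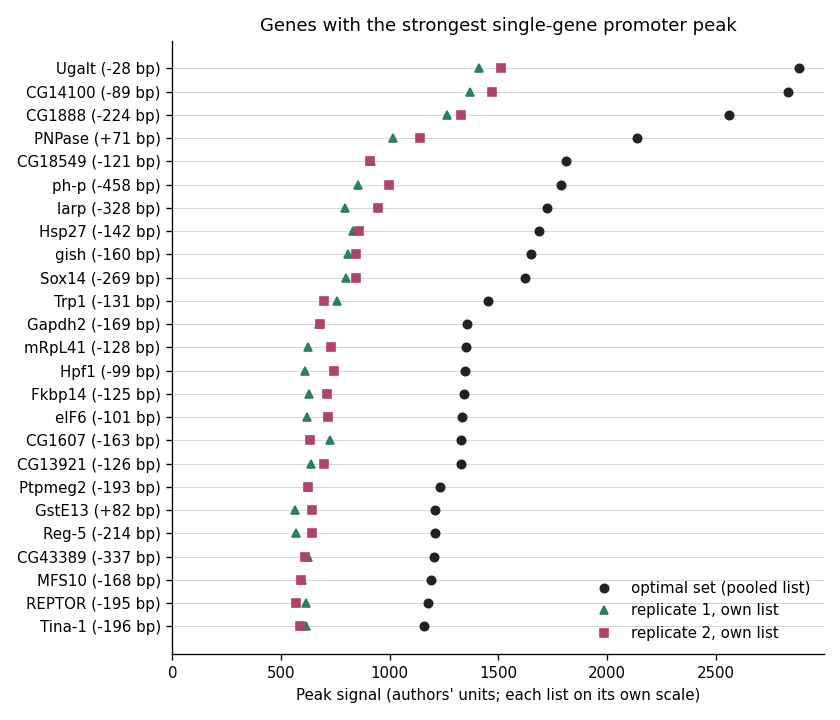
Signal of the 25 genes with the strongest single-gene promoter peak in the pooled list (circles) and in the list of replicate 1 (triangles) and of replicate 2 (squares), in the authors' units, with the distance of the summit from the nearest start beside each name. Ugalt is highest at 2881 and Tina-1 lowest of the 25 at 1157, and the replicates lie close to each other in each gene.

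The 1937 peaks belonged to 1592 genes, 11.4% of the 13968 protein-coding genes. Among the 8793 genes with at least 1 start that has no start of another protein-coding gene within 1000 bp, where the rule can be met most easily, it was 16.3%. Most genes had 1 such peak (1321 genes, 83.0%), 220 had 2 and 51 had more (37 with 3, 7 with 4, 6 with 5 and 1 with 7). The genes with a peak were longer (median 5964.5 bp) than all protein-coding genes (2164.5 bp). They also more often had 2 or more start groups, in 56.3% against 23.6%. The share of genes with a peak was 6.52% for the 10675 genes with 1 start group, 19.6% for those with 2, 37.3% for those with 3 and 57.8% for the 374 genes with 4 or more. A gene with more starts has more windows in which a summit can fall. Counted per start group, the shares were 6.52%, 10.8%, 15.4% and 19.0% in the same order, so the rise was smaller but ran the same way. Start groups near another gene's start are counted in these shares, although the rule leaves out peaks close to both. The part of this in the rise was not tested.

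Choice among alternative starts was described for the 896 genes with exactly 2 start groups over 1000 bp apart, so that the windows do not overlap. Of these, 248 (27.7%) had a single-gene promoter peak. The peak lay at the upstream start alone in 112 genes (45.2%), at the downstream start alone in 100 (40.3%) and at both in 36 (14.5%). The order of the first counts was not stable, and the downstream start was the more frequent with a window of 1000 bp (111 against 108 genes), among peaks above the median signal of the set (57 against 51) and in the list of replicate 2 alone (46.7% against 43.1% of the genes with a peak). In 61.8% of the 896 genes the upstream start had no start of another protein-coding gene within 1000 bp, and in 86.3% the downstream start had none, so the rule removes more upstream starts. Among the 161 genes with a peak and no other gene's start near either start, 81 had it at the upstream start alone, 49 at the downstream start alone and 31 at both.

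**Figure D4:**
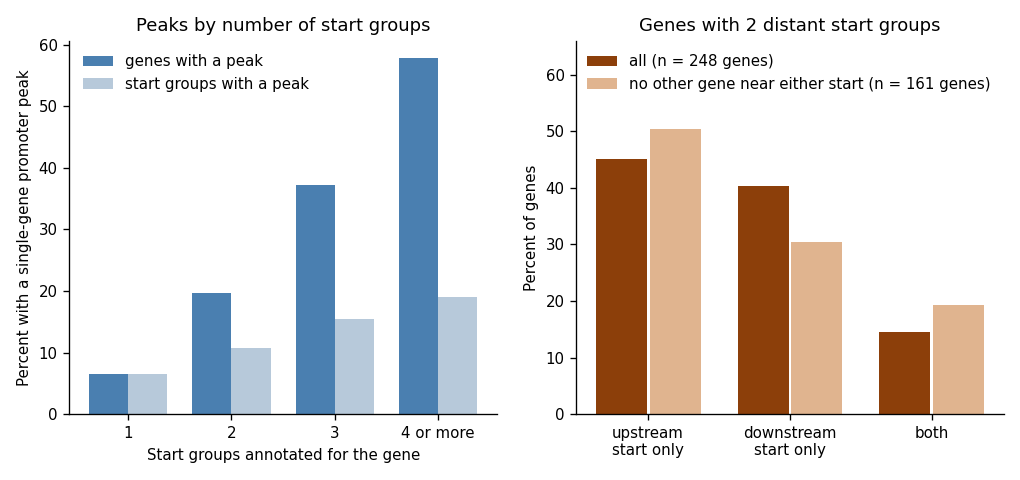
Left, percent of genes and of start groups with a single-gene promoter peak, by the number of start groups annotated for the gene. Right, percent of the genes with 2 distant start groups whose peak lies at the upstream start, the downstream start or both, for all 248 genes with a peak and for the 161 with no other gene's start within 1000 bp of either. Genes with more start groups had a peak more often, and 14.5% of the 248 genes had a peak at both starts.

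At upstream starts bound alone the median signal was 127 (116 peaks) and the median summit lay at −62.5 bp, with 63.8% upstream. At downstream starts bound alone the median was also 127 (106 peaks), with the summit at −158.5 bp and 74.5% upstream. The medians of signal were thus the same to 3 digits, while summits at the downstream starts lay further from the start. In the 36 genes with peaks at both, the upstream start had the higher signal in 20 and the downstream start in 16.

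Counting genes with any number of start groups, 562 peaks (29.0%) of 418 genes lay at a start more than 1000 bp downstream of the most upstream one, at a median of 5528 bp from it. Their median signal was 134, against 133 for the 462 peaks at the most upstream start group of genes with 2 or more groups and 142 for the 732 peaks of genes with 1 group. Of the summits at internal starts 77.8% lay upstream, against 62.6% at the most upstream group and 75.8% in genes with 1 group. The 8 strongest at internal starts included CG1888, where the start nearest the peak is 1177 bp downstream of the first. At ph-p the start nearest this peak was the middle one of 3 start groups, 1516 bp from the first. A weaker ph-p peak (546) lay 393 bp downstream of the first start group. At larp the start nearest the strongest peak was the last of 5 groups, 10176 bp from the first. A weaker larp peak (228) lay at −243 bp of group 2. At gish it was the third of 4 groups, at 8437 bp. CG1607 (1327; 724 and 632 in replicates 1 and 2) was bound at the second of 2 groups. Ptpmeg2 (1231; 621 and 622), MFS10 (1191; 596 and 593) and REPTOR (1176; 614 and 571) were bound at internal starts 13220, 2498 and 10369 bp from the first. In all 8 the summit lay upstream of the internal start, between −160 bp (gish) and −458 bp (ph-p). The condition of over 1000 bp leaves out PNPase (2137), bound at the second of 3 groups with its summit 71 bp downstream.

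Genes with most peaks show how the starts of 1 gene differ. Of the 7 genes with 4 peaks, the 3 with the highest signal are given. Rtnl1, which encodes a reticulon that shapes the endoplasmic reticulum, had 7 peaks at 5 of its 7 start groups. Its strongest, 926 (472 and 452 in replicates 1 and 2), lay at −278 bp from group 6, counted from the most upstream, and the weakest, 106 (63.4 and 46.1), 30 bp downstream of group 1. Its bound groups 3, 4, 5 and 6 all had their summits upstream, and the weak peak at group 1 did not. Eip75B, which encodes a nuclear receptor of the ecdysone response, had 5 peaks at 5 of 7 start groups. One of 727 (368 and 358) at 19 bp downstream of group 5 stood far above the others, which ran from 83.6 to 123. Svil, which encodes an actin-binding protein, had 5 peaks at 5 of 16 groups, from 97.0 at group 14 to 629 (343 and 288) at group 16.

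At dnc, which encodes a cAMP phosphodiesterase, 5 peaks at 4 of 9 groups ran from 87.3 to 502 (240 and 268, at group 6). A pair at group 2, of 416 and 162, was unmatched in replicate 1 and had 204 and 157 in replicate 2. cnc, which encodes a leucine zipper factor, had 5 peaks, with 451 (241 and 220) at 331 bp downstream of group 8 as the highest. For shep, which encodes an RNA-binding protein, the highest of 5 was 412 (185 and 221) at −199 bp of the first group. SNF4Agamma, which encodes a subunit of the AMP-activated kinase, had 5 peaks from 88.4 to 269. Ptpmeg2 had 4 peaks, of 128, 599, 1231 and 488 in the order of its start groups 1, 2, 4 and 5, and the last 3 of these lay at −217, −193 and −193 bp. The pair at groups 4 and 5 thus had the same distance from different starts in the pooled list. bun, a gene of the TSC22 family, had 4 peaks with 679 (341 and 351) at group 6 as the highest. lola, which encodes BTB proteins, had 4 with 568 at group 2, which was unmatched in replicate 2 (252 in replicate 1). In all of these genes but shep the strongest peak lay at a start group other than the first. They were picked for their number of peaks and have 4 to 16 start groups each, so most of their starts are not the first. In SNF4Agamma, Svil and dnc the first group had no single-gene promoter peak.

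By annotation, 735 summits (37.9%) lay between protein-coding genes, 584 (30.1%) in an intron of the gene itself, 26.1% in its 5′ untranslated region, 98 (5.06%) in the body of another protein-coding gene and 15 (0.774%) in a coding exon of the gene. Of the upstream summits, 52.7% lay between genes and 34.1% in an intron of the gene itself. Of the summits at or downstream of the start, 78.1% lay in the 5′ untranslated region. Median signals were 151 between genes, 147 in introns, 147 in the body of another gene, 119 in 5′ untranslated regions and 100.6 in coding exons. A start of a noncoding RNA gene lay within 500 bp of 126 summits (6.50%). The start of the next protein-coding gene was a median of 3146 bp away, and in 275 cases (14.2%) it was over 500 and up to 1000 bp from the summit.

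Compared with the rest of the set, single-gene promoter peaks had a median signal of 137 (25th to 75th percentile 102 to 225), against 170 for promoter peaks of 2 or more genes (118 to 269) and 132 for peaks away from protein-coding starts (100.6 to 210). A signal of 500 or more was found in 7.33% (142 peaks), against 8.497% and 5.03%. Of the 100 strongest peaks of the set, 38 were single-gene promoter peaks, 21 lay near starts of 2 or more genes and 41 near none. A match in both replicates was found for 92.5%, against 93.9% and 93.4%. These are descriptions, and no test was made of the differences. At the limit of the rule, the 7 peaks with summits less than 5 bp inside 500 bp had signals from 88.2 to 819 (median 556), and the 6 peaks up to 5 bp outside it, near a single gene, had 96.6 to 236 (median 124).

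Gene groups differed widely in how often they had a single-gene promoter peak, against 11.4% of all protein-coding genes. Only peaks near starts of 2 or more genes were found for 1320 of the 13968 protein-coding genes. The lists were chosen with earlier results of these data known, some genes stand in more than 1 list, and no list was tested. Across all genes the share ran from 6.52% with 1 start group to 57.8% with 4 or more. The lists were not matched to all genes by start groups, gene length or neighbouring starts, so the part of these in the differences was not tested. In the ecdysone response 17 of 33 genes (51.5%) had one, with a median of 161 for the strongest peak of each gene, against 146 over all genes with a peak. After Eip75B came Eip63F-1 (518; 257 and 260 in replicates 1 and 2), with the summit 457 bp downstream of a start in an intron. E23, an ABC transporter gene, had 452 (250.3 and 208) at −188 bp, and Ldh, the lactate dehydrogenase gene formerly called ImpL3, 449 (235 and 218) at −148 bp. Of these 17 genes, 12 had the summit of the strongest peak upstream.

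BTB zinc finger and chromatin architecture genes had 11 of 26 (42.3%). lola led them, followed by Trl, which encodes GAGA factor (299; 147 and 159), 134 bp downstream of a start, mamo (236; 98.0 and 133) at −476 bp, and Clamp (159), at 480 bp downstream, unmatched in replicate 1. In this group 4 of 11 had the summit upstream. Polycomb, trithorax and remodelling genes had 8 of 52 (15.4%), close to the share of all genes, although ph-p was among the strongest peaks. Sin3A, a corepressor gene, had 453 (190.1 and 256), jing 223 (113 and 101.2) and nej, which encodes the acetyltransferase CBP, 178 (87.7 and 92.4).

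Notch pathway genes had 11 of 29 (37.9%). gro, the corepressor gene, was highest with 600 (271 and 316), at −140 bp of the third of its 4 start groups. E(spl)m7-HLH had 396, with 217 in replicate 2 and no match in replicate 1. At numb, the gene of a Notch inhibitor, the signal was 363 at −144 bp, with 207 at the same position in replicate 2, while the match in replicate 1 was a summit of 38.1 at −46 bp. neur, a ubiquitin ligase gene, had 223 (118 and 104). Protein kinase genes had 20 of 71 (28.2%). After gish, sgg, the gene of GSK3, had 921 (437 and 475) at −220 bp of the eighth of 10 start groups, Btk, a tyrosine kinase gene, 797 (405 and 399) at −133 bp and Doa 397 (201 and 199) at −53 bp. All 4 kinase summits were in an intron of the gene upstream of an internal start.

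Actomyosin and cell shape genes had 12 of 36 (33.3%). jar, which encodes a myosin, had 576 (271 and 310) at −498 bp. sqh, the myosin light chain gene, had 294 (144 and 150.05) and Moe, the moesin gene, 281 (125 and 158). Cell death and autophagy genes had 6 of 34 (17.6%), led by the cell death gene hid (444; 213 and 237) at −338 bp, then Atg8a (181; 75.9 and 104), Diap1 (115.5; 61.4 and 55.7), an inhibitor of apoptosis, and Vps15 (111; 43.3 and 63.4). Rab GTPase genes had 8 of 31 (25.8%), with Rab5 at 298 (148 and 150.1) and Rab1 at 163 (87.5 and 71.0) highest, then Rab11 (115.1, unmatched in replicate 1) and Rab32 (111; 48.3 and 67.0).

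Cytosolic ribosomal protein genes had 32 of 88 (36.4%), and 27 more had only peaks near the starts of 2 or more genes. Summits in this group lay close to the start, with a median of −13.5 bp for the strongest peak of each gene. RpL23A had 470 (244 and 223) at −87 bp, RpL30 394 (191 and 203) at 6 bp downstream, RpL24 385 (180.1 and 209) at −15 bp and RpS28b 333 (167 and 174) at −42 bp. Mitochondrial ribosomal protein genes had 1 of 73 (1.37%), which is mRpL41 (1350; 623 and 731), with the next gene's start 634 bp from the summit, and 25 others had only peaks shared between genes. Translation factor genes had 10 of 52 (19.2%). After eIF6 (1334; 619 and 717), which has another gene's start at 671 bp, came eEF1gamma (493; 240.0 and 255), eEF2 (241; 113 and 126) and eIF4A (211; 101.2 and 97.5).

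Few genes of the remaining groups had such a peak. Of 85 cytochrome P450 genes 5 did (5.88%): Cyp310a1 (367), Cyp317a1 (232), Cyp6a2 (177), Cyp6t1 (109) and Cyp6v1 (94.7), with all 5 summits upstream, between 174 and 470 bp from the start. Of 48 proteasome genes it was 2 (4.17%), Rpn11 (123) and Rpn12 (97.9), with 5 more near starts of several genes. Of 113 cuticle protein genes it was Cpr72Eb alone (0.885%), with 210 at −494 bp, near the limit of the rule. Of 179 chemoreceptor genes none did, and 2 had a peak near starts of several genes.

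**Figure D5:**
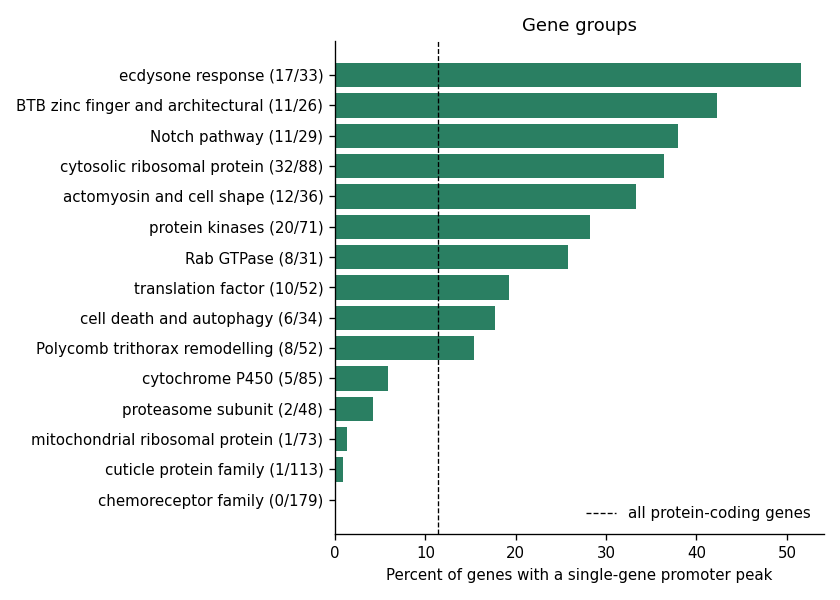
Percent of genes in each of 15 lists with a single-gene promoter peak, with the number of genes with a peak and in the list beside each name. The dashed line is the 11.4% of all protein-coding genes, to which the lists were not matched by start groups or gene length. Ecdysone response genes lie highest (17 of 33) and chemoreceptor genes at 0 of 179.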

How the data were processed

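Peak lists of 2 replicates of 1 group were used. For dm6 the authors deposited a list of 30000 peaks per replicate and 1 called on the pooled replicates, each against a control alignment, and the set kept after the irreproducible discovery rate step, per the README with the samples. Aligner, caller and cutoff: not given in the sources used here. Each peak's signal is the authors' deposited value, with no stated scale, and levels were ranked within a list only; ratios between replicates' lists include any difference of scale. All 6635 kept peaks were the 6635 strongest of the pooled list, and neighbouring summits of that list are never closer than 199 bp. Fragments were 200 to 800 bp, per the labels.

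Starts came from Ensembl release 115 (BDGP6.54), for all transcripts of protein-coding genes. Starts within 100 bp of the next were merged into 1 group, and each summit was given to its nearest start. Replicates were matched by the strongest summit within 100 bp. Coordinates are 1-based. Words were counted on both strands in 101 bases around each summit. No test was made: the series has 1 group, and peaks and genes are not replicates. The members and lists were chosen with earlier results of these data known. Genes named are the 25 with the strongest peak, the 10 with most peaks (ties by signal), the 8 strongest at internal starts and up to 4 per list, or all where fewer than 6 had a peak. Internal starts are those over 1000 bp downstream of the most upstream one. One gene this rule names is not reported here. Of 289 symbols listed for 7 lists, 6 found no gene; the 8 family lists take all genes whose symbol starts like the family's. In choosing sequences, 1 peak in an untranslated region was passed over. Classification was checked on simulated starts and summits. Python 3.11.15, numpy 2.4.6 and pandas 2.3.3 were used. The dm3 lists were not used here.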

Additional observations from a re-analysis of the deposited data

How the results depend on the processing

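Each of the 10 results was recomputed under the alternatives fixed for it and 1 added after the data were seen, and 54 of 82 values moved by less than the spread between replicates (for shares across replicates, less than their 95% binomial interval; for counts, within 1.5-fold). The cause of the other changes was not tested. Using starts of protein-coding transcripts alone changed none of the 10 results, and its values are counted among the 54. The spread is the SD of the values from the 2 replicates' own lists, which are themselves among the alternatives. Summits were mostly upstream under all alternatives run. Among peaks above the median signal of the set there were 960 single-gene peaks at 852 genes, 79.8% upstream, with a median of −131 bp, 33.4% within 100 bp, a median signal of 226, a signal ratio of 0.779 between near and far peaks, 95.7% matched in both replicates and 95.9% on the same side in both. With a window of 250 bp the median was −59 bp, 55.7% lay within 100 bp, the median signal was 135, the upstream start alone was used by 56.0% of the genes with 2 starts and 90.04% of the summits were on the same side. With 1000 bp, 66.2% were upstream and 28.5% within 100 bp, the median signal was 139, the upstream start alone had 39.1% and 94.4% were on the same side. The share at the upstream start alone was 42.8% with starts merged within 300 bp and 50.3% without genes that have another gene's start within 1000 bp. Matching replicates within 50 bp gave 75.3% in both lists with 94.4% on the same side, and within 200 bp 98.3% in both. With the 6635 strongest peaks of 1 replicate in place of the kept set, the number of single-gene peaks was 1890 to 2021, the median signal 69.5 to 71.9, on the scale of those lists, and the signal ratio 0.849 to 0.880. The signal ratio has no value for the window of 250 bp. No paired analysis was possible because the series has 1 group. Depth is unknown, so no counting error can be given.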

Other observations

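Chromosome arms differed little in the share of their genes with a single-gene promoter peak, from 10.2% on 2L (272 of 2657 genes) to 12.8% on X (282 of 2196), apart from the small arm 4 with 4 of 80 (5%). The median signal ran from 131 on 3R to 146 on 2L among the larger arms.

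Of the 1822 start groups with a peak, 114 had 2 or more. In 77 of them all summits lay upstream, in 27 they lay on both sides of the start and in 10 all downstream. The span between the outermost summits was under 230 bp in 87, close to the smallest distance of 199 bp between neighbouring summits in the pooled list. Whether such pairs are 2 sites or 1 broad site was not tested. The genes with the strongest such pairs, picked after their values were seen, were Reg-5 (1208, summits 199 bp apart), CG43389 (1202) and Tina-1 (1157, 200 bp).

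Among the 36 genes with peaks at both of 2 distant starts, also picked after their values were seen, the ratio between the starts varied. Pi3K21B, which encodes the regulatory subunit of a PI3 kinase, had 489 at the upstream and 150 at the downstream start, and brwl 820 and 387. The other way, Cerk, a ceramide kinase gene, had 89.0 at the upstream and 577 at the downstream start, and Sin3A, a corepressor gene, 90.6 and 453. Act5C, an actin gene, had 112 and 110.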
